A study of Mus musculus with 2 samples.

Results

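The genes described here are 49 components of the Wnt signalling pathway other than Ctnnb1, chosen by gene name: the receptors and membrane regulators, the machinery that secretes the ligands, the secreted antagonists, the β-catenin destruction complex, the cytoplasmic transducers and the nuclear factors. In direct RNA sequencing of day 6 mouse retinal organoids, 35 of the 49 genes had at least 1 position listed in replicate 2 and 24 had one in replicate 1, out of 8262 named genes listed in either. A site was a listed position with at least 20 reads in replicate 2, and by that rule 124 of the 16212 sites of the data set lay in 20 of the 49 genes. Of these, 87 were also listed in replicate 1, where they were used at any coverage from the listing minimum of 5 reads upward.

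Both libraries came from wild-type organoids of the mouse line Rx:GFP, which carries a green fluorescent reporter of the eye-field gene Rx, and were differentiated for 6 days with AGN at 0.1 µM. They form 1 group with n = 2 and carry the same batch label, and organoids without AGN were not analysed here, so no treatment is compared. The labels do not say whether the libraries came from separate cultures, so the spread between them may be technical. With 2 replicates an exact paired permutation test cannot give less than p = 0.5, and all comparisons below are descriptions.

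Wnt proteins are secreted ligands that bind Frizzled receptors together with the co-receptors Lrp5 and Lrp6. Without a signal, a complex of Axin, Apc, Gsk3 and casein kinase 1 marks β-catenin for degradation, while with a signal Dishevelled proteins recruit Axin to the membrane, β-catenin accumulates and Tcf/Lef factors exchange Tle corepressors for coactivators. In the early eye field this pathway is held low in the prospective neural retina. N6-methyladenosine (m6A) is a methyl mark placed on adenosines of messenger RNA by the METTL3 complex, and for many mRNAs it affects stability and translation.

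For every position the deposited tables give a fraction modified, between 0 and 1, and the number of reads over it. Reads printed beside a fraction are this coverage, which for most member fractions is not the denominator. All listed positions lie on 4 motifs of 5 bases, written in DNA letters, which are shown because the fraction depends strongly on them. The capital marks the central adenosine, the base that m6A modifies in this context.
A-ending motif: ggAca
T-ending motif with A first: agAct
T-ending motif with G first: ggAct
C-ending motif: ggAcc
Positions are the listed ends, counted on the Ensembl transcript. Among 109 listed positions in the first 47 bases of genes with a RefSeq start-site sequence (GRCm38.p6), the motif was found with the listed end at its base 4 in 23 cases and at any other base in at most 3, so that in these cases the adenosine lay 1 base before the printed position. Chromosomes, starts and ends of genes are printed as deposited. The submitters' processing notes name mm10, but of 35 members with coordinates 1 started within 1000 bases of its GRCm38.p6 start, so their build is not settled and they serve as labels only.

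Depth at the member sites ranged from 20 to 239 reads in replicate 2 (median 47) and from 5 to 94 in replicate 1 (median 14). The median at sites of all other genes was 36 and 17 reads. Of the genes listed in replicate 2, 48.6% had a site, against 20 of the 35 listed members. Members with a site held a median of 5.5 sites, against 3 in other genes. The retinal identity of the material was checked on marker genes: 8 of 9 eye-field and retinal progenitor genes were listed in replicate 2, while none of 6 pluripotency, 4 photoreceptor, 4 ganglion cell, 4 neural crest and mesenchyme or 4 endoderm and mesoderm genes was listed, and of 4 pigment epithelium genes Mitf and Pmel were listed without a site. A gene that is not listed may be weakly expressed or carry no listed position, and the tables cannot tell these apart. In bulk RNA, fewer cells of a type and less RNA per cell cannot be told apart either.

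Among the members, fractions covered the whole range, from 0 to 1 in each replicate, with a median of 0.385 in replicate 1 and 0.321 in replicate 2. Other genes had medians of 0.375 and 0.345. Within a single member the range was nearly as wide as over all of them: in the 16 members with 3 or more sites, the highest and lowest fractions in replicate 2 differed by a median of 0.796, and in 2456 other genes by a median of 0.724. The plot of fractions by gene shows this spread for the 20 genes. Below, the highest and lowest sites of a gene are those of replicate 2, the deeper library, and their order can differ in replicate 1.

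**Figure D1:**
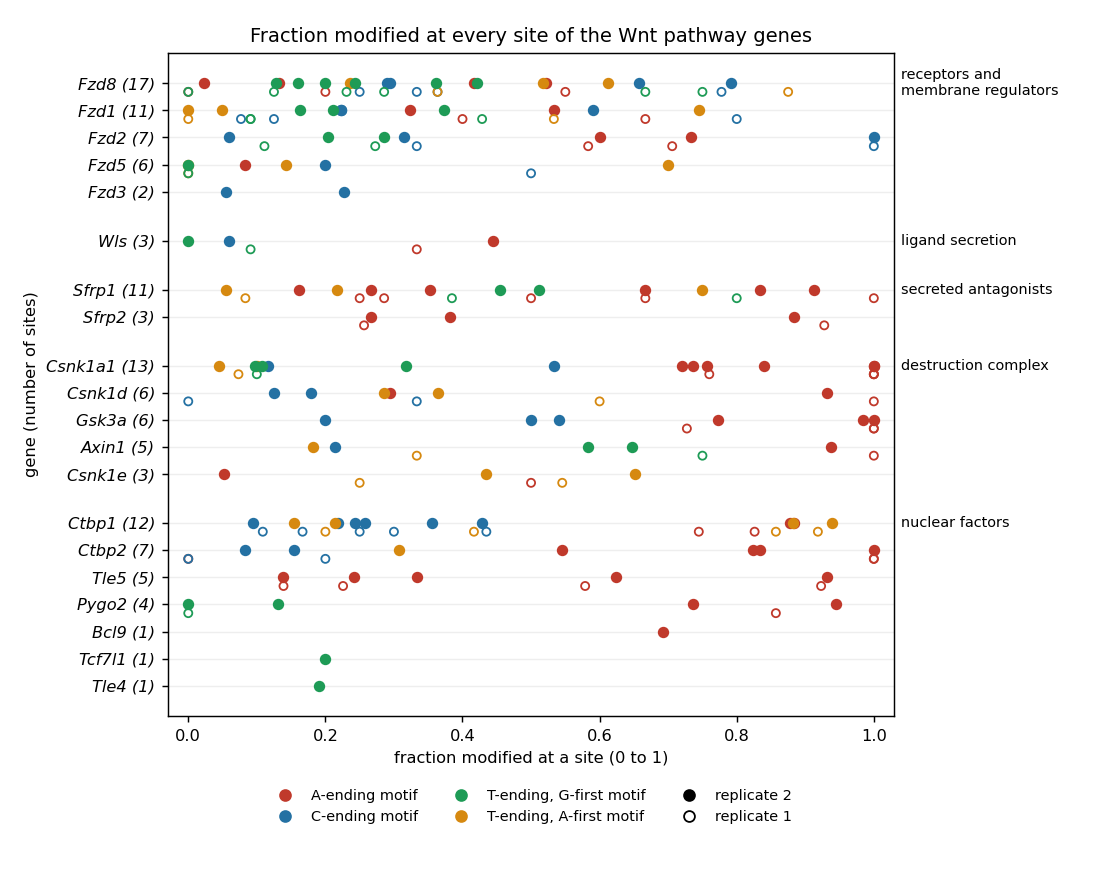
Fraction modified (x axis, 0 to 1) at each of the 124 sites, by gene (y axis, with the number of sites) and by group. Filled points are replicate 2 and open points, drawn just below, are replicate 1 where listed; colours give the motif, with GGACA as A-ending, GGACC as C-ending, GGACT as T-ending and G-first, and AGACT as T-ending and A-first. Within genes of 3 or more sites the range has a median of 0.796 in replicate 2, and the A-ending sites of Gsk3a at positions 650 and 1285 and of Csnk1a1 at positions 983 and 944 sit at the right edge.

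Frizzled receptors are the membrane proteins that bind Wnt ligands. Of the 10 Frizzled genes, 5 had sites, 43 in all. Fzd7 reached 19 reads in replicate 2 and fell just under the minimum, with a GGACA at position 4186 that had 0.889 in replicate 1 and 1 in replicate 2, and Fzd4, Fzd6, Fzd9 and Fzd10 were not listed in either replicate. No site was found in the co-receptor genes: Lrp6 reached 7 reads in replicate 2 and Lrp5 was not listed. Lgr4, a receptor for R-spondins, reached 7 reads, and Kremen1, a receptor for Dkk proteins, reached 8, while Lgr5 and Znrf3, a ligase that removes Frizzled from the membrane, were not listed.

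Fzd8, a Frizzled expressed in the anterior neural plate, carried the most sites of any member. Its 17 sites lay between positions 44 and 2875 of transcript ENSMUST00000041080.5 (chromosome 18, 9212163 to 9218136), and 15 of them were listed in replicate 1. The mean over those 15 was 0.385 in replicate 1 and 0.376 in replicate 2 (0.380 ± 0.00625, SD, n = 2). The highest site of Fzd8 in replicate 2 was a GGACC at position 1786, with 0.778 in replicate 1 (13 reads) and 0.792 in replicate 2 (60 reads). In replicate 1 AGACT position 1884 was higher, with 0.875 over 14 reads there and 0.613 over 64 reads in replicate 2. The lowest was a GGACA at position 2875, a motif that is usually high, with 0 over 24 reads and 0.0233 over 65 reads. The deepest positions had 84 reads in replicate 2. There the GGACT at position 2549 had 0.667 over 25 reads in replicate 1 and 0.362 in replicate 2, and the GGACA at position 2530 had 0.55 over 24 reads and 0.417. Coverage along Fzd8 rose from 30 reads at position 44 to 84 at position 2530 in replicate 2.

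Fzd1 (chromosome 5, 4803839 to 4808035) had 11 sites between positions 818 and 3748, with a mean of 0.330 ± 0.0121 (SD, n = 2) over the 10 listed in both. Its highest site in replicate 2 was an AGACT at position 2393, with 0.533 in replicate 1 (19 reads) and 0.745 in replicate 2 (56 reads). In replicate 1 the highest was GGACC position 2129, with 0.8 over 18 reads there and 0.590 over 54 reads in replicate 2. At position 2237, an AGACT of the same transcript, the fraction was 0 in both, over 18 and 56 reads. The deepest sites of Fzd1 were 2 GGACT positions covered by 33 and 74 reads each: position 3725 had 0.0909 and 0.212, and position 3748 had 0.429 and 0.373.

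Fzd2 (chromosome 11, 102495222 to 102498884) had 7 sites, and its replicates were close, with a mean of 0.501 in replicate 1 and 0.523 in replicate 2 over 6 sites. A GGACC at position 415 was listed with a fraction of 1 in both replicates, over 18 and 55 reads. It is the only member site outside GGACA and AGACT with at least 0.8 in both replicates, and of all 2544 GGACC sites listed in both, 5.23% reached that level. The next GGACC of Fzd2, 41 bases further at position 456, had 0.0600 over 60 reads in replicate 2 and was not listed in replicate 1. At the deepest sites, with 92 reads in replicate 2, GGACT position 2096 had 0.273 and 0.286 and GGACT position 2146 had 0.111 and 0.204.

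Fzd5, which is expressed in the optic vesicle, was the lowest of the Frizzled genes with 3 or more sites. Its 6 sites (chromosome 1, 64769717 to 64776910) all lay at or beyond position 3860, and the mean over the 3 listed in both was 0.167 in replicate 1 and 0.0667 in replicate 2. A fraction of 0 was listed in both replicates at AGACT position 4002, over 5 and 20 reads, and at GGACT position 4553, over 6 and 25 reads. The highest site of Fzd5, AGACT position 3860, had 0.7 over 20 reads in replicate 2 and no value in replicate 1, and the deepest, AGACT position 6147, had 0.143 over 51 reads. Positions of Fzd5 that were not sites were higher: 11 upstream of 3860, listed in replicate 2 alone with 8 to 17 reads, had 0.273 to 1, and 3 further downstream, listed in replicate 1 alone, had 0.25 and 0.333 over 5 reads each and 0.667 over 13 reads. The low mean of Fzd5 therefore covers few of its listed positions. In Fzd3 both sites were GGACC, with 0.227 over 31 reads and 0.0556 over 23 reads in replicate 2 alone.

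**Figure D2:**
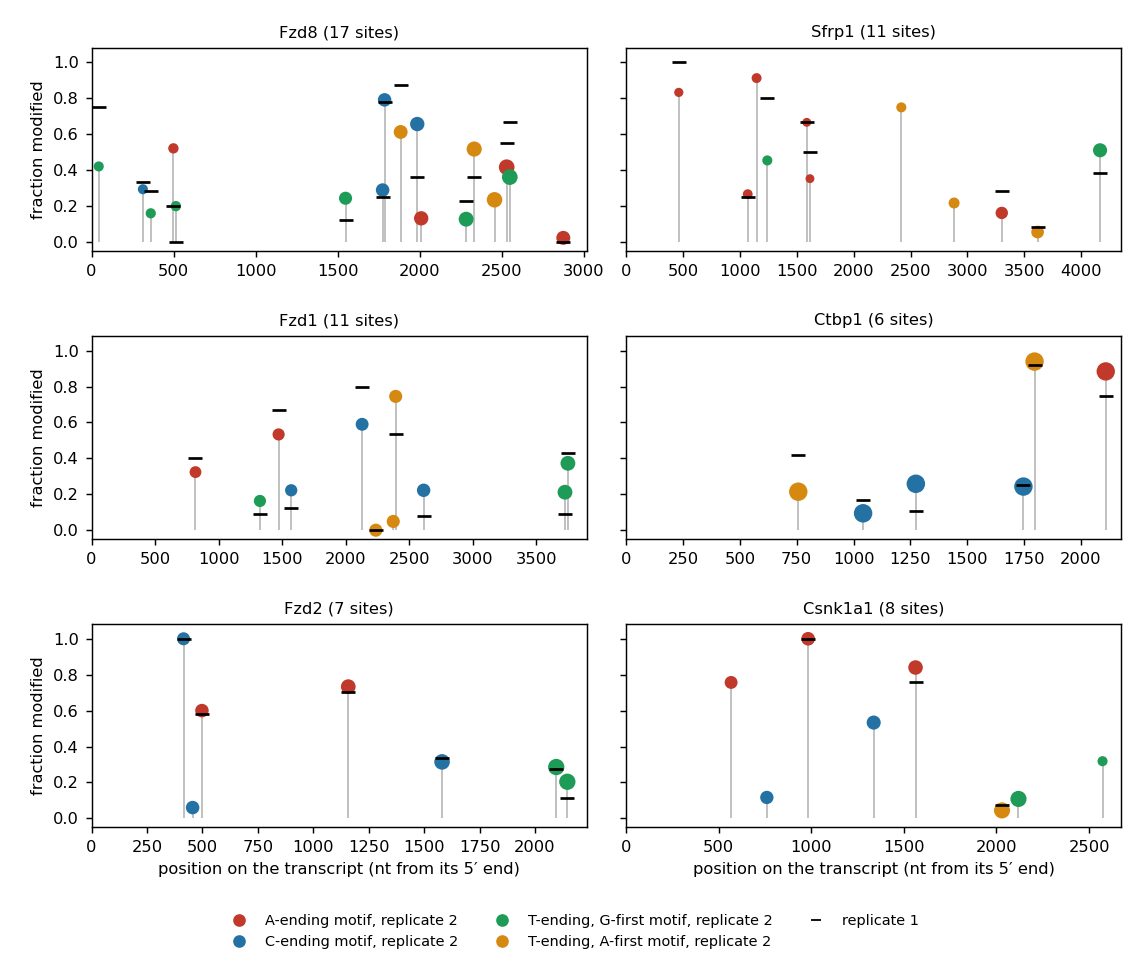
Fraction modified (y axis) against position on the transcript in nucleotides from its 5′ end (x axis) for 6 members, with 1 transcript each for Ctbp1 and Csnk1a1. Points are replicate 2, with area proportional to coverage and colour by motif as in the plot by gene, and black dashes are replicate 1. High and low sites can lie close together, as in Fzd1, where AGACT positions 2374 and 2393 have 0.0488 and 0.745 in replicate 2.

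Wls carries Wnt proteins to the cell surface and Porcn attaches the lipid they need. Wls (chromosome 3, 159545309 to 159644300) had 3 sites at exactly 20 reads in replicate 2, and all 3 lay below the median of other genes at their motif. Its GGACA at position 2037 had 0.333 over 12 reads in replicate 1 and 0.444 in replicate 2, its GGACT at position 1379 had 0.0909 over 11 reads and 0, and its GGACC at position 1852 had 0.0588 in replicate 2. Porcn reached 6 reads.

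Secreted antagonists bind Wnt proteins or their receptors outside the cell. Of 6, only Sfrp1 and Sfrp2 were listed, with 14 sites, while Sfrp5, Frzb, Dkk1 and Dkk3 were not. In Sfrp1 (chromosome 8, 23901518 to 23939648), 11 sites were spread over positions 463 to 4166, and their mean over the 8 listed in both was 0.496 in replicate 1 and 0.413 in replicate 2. At the 2 of these with 50 or more reads in replicate 2 the mean was 0.259 ± 0.0349 (SD, n = 2). The highest Sfrp1 site was a GGACA at position 1147, with 0.913 over 29 reads in replicate 2 and no value in replicate 1, followed by GGACA position 463 with 1 over 10 reads and 0.833 over 24 reads. An AGACT at position 3617 was the lowest, with 0.0833 over 19 reads and 0.0556 over 52 reads. The deepest, GGACT position 4166, had 0.385 over 22 reads and 0.511 over 66 reads. Replicate 2 coverage of Sfrp1 was 24 reads at its first site and 66 at its last.

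Sfrp2 (chromosome 3, 83673628 to 83681623) was the most deeply covered member, with 3 sites of 196 to 239 reads in replicate 2, all GGACA. Position 1005 had 0.928 in replicate 1 (94 reads) and 0.883 in replicate 2 (239 reads), and position 665 had 0.256 over 75 reads and 0.382 over 209 reads. The site at position 491 had 0.266 over 196 reads in replicate 2 and was not listed in replicate 1. The high site and the 2 low ones are thus of the same motif on the same transcript.

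In the destruction complex the kinases carried most of the sites. Of 8 genes, 5 had sites, 33 in all. The scaffold Apc reached 13 reads in replicate 2 and Gsk3b 5 reads, and Axin2, a feedback target of the pathway, was not listed. Axin1, the scaffold that limits assembly of the complex, had 5 sites (chromosome 17, 26357662 to 26414785) at 20 to 23 reads in replicate 2. Its highest, GGACA position 3089, had 1 in replicate 1 (11 reads) and 0.938 in replicate 2 (23 reads). The neighbouring GGACT at position 3024 had 0.75 and 0.583 over the same numbers of reads, and AGACT position 1937 was lowest, with 0.333 over 7 reads and 0.182 over 20 reads.

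Gsk3a, one of the 2 Gsk3 kinases that phosphorylate β-catenin, had 6 sites (chromosome 7, 24927683 to 24937276), of which 3 were listed in replicate 1. These 3 were all GGACA and all high. Position 650 had 1 in both replicates, over 9 and 60 reads, position 1285 had 1 over 13 reads and 0.984 over 69 reads, and position 1160 had 0.727 over 13 reads and 0.773 over 64 reads. Their mean was 0.914 ± 0.00695 (SD, n = 2), the highest of the members with sites in both replicates. The other 3 Gsk3a sites were GGACC, with 0.5 over 36 reads, 0.2 over 62 reads and 0.541 over 64 reads in replicate 2 alone.

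Csnk1a1 encodes casein kinase 1α, which primes β-catenin for Gsk3. It had 13 sites on 2 transcripts (chromosome 18, 61688345 to 61723132). GGACA position 983 of ENSMUST00000165123.7 had a fraction of 1 in both replicates, over 36 and 61 reads, and GGACA position 1563 had 0.76 over 43 reads and 0.84 over 71 reads. The deepest site of Csnk1a1, GGACT position 2119, had 0.108 over 90 reads in replicate 2 alone. AGACT position 2030, the lowest, had 0.0732 over 53 reads and 0.0441 over 89 reads. In Csnk1d (chromosome 11, 120849816 to 120882156) GGACA position 1741 had 1 over 19 reads and 0.931 over 39 reads, and GGACC position 579 had 0 over 13 reads and 0.125 over 27 reads. Csnk1e (chromosome 15, 79302056 to 79339767) held the destruction complex GGACA whose replicates were furthest apart: position 1630 had 0.5 in replicate 1 (10 reads) and 0.0526 in replicate 2 (21 reads). Its highest site, AGACT position 2027, had 0.545 and 0.652 over 12 and 30 reads.

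Dishevelled proteins relay the signal from Frizzled to the destruction complex, and Nkd1 is a Dishevelled-binding feedback inhibitor. All 4 genes of this group were listed in replicate 2, and none had a site. Dvl2 had the most positions in replicate 2, 14 on 3 transcripts, with at most 11 reads. Dvl1 reached 8 reads, Dvl3 6 and Nkd1 12.

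The nuclear factors comprise the Tcf/Lef proteins that bind DNA, the Tle and Ctbp corepressors and the coactivators Bcl9 and Pygo2. Of 13 genes, 7 had sites, 31 in all, and 28 of these lay in Ctbp1, Ctbp2, Tle5 and Pygo2. The DNA-binding factors were nearly without sites: Tcf7l1 had 1, a GGACT at position 1724 with 0.2 over 31 reads in replicate 2, while Tcf7 and Tcf7l2 reached 6 and 9 reads and Lef1 was not listed. Among the Tle corepressors, Tle3 had 23 positions on 4 transcripts with at most 10 reads, Tle1 reached 13 reads, Tle2 was not listed, and Tle4 had 1 GGACT with 0.190 over 23 reads. Bcl9 had 1 GGACA with 0.692 over 20 reads.

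Ctbp1, a corepressor that binds short peptide motifs in transcription factors, had 12 sites on 2 transcripts (chromosome 5, 33405067 to 33432338) and the deepest coverage of the nuclear factors. On ENSMUST00000202868.3 its AGACT at position 1796 had 0.918 in replicate 1 (62 reads) and 0.939 in replicate 2 (121 reads), and the GGACA at position 2109 had 0.745 over 61 reads and 0.884 over 120 reads. Both AGACT member sites with at least 0.8 in each replicate are this position and position 1608 of the other transcript, with 0.857 over 30 reads and 0.882 over 69 reads. Such values are rare for the motif, since 2.53% of 2012 AGACT sites listed in both reached them. The lowest Ctbp1 site in replicate 2 was the GGACC at position 1042, with 0.167 over 62 reads and 0.0941 over 122 reads. Mean fraction over the 11 sites listed in both was 0.475 and 0.485 (0.480 ± 0.00685, SD, n = 2). In replicate 1 GGACC position 1274 of the same transcript was lower, with 0.109 over 62 reads.

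Tle5, the short member of the Tle family that lacks the WD repeats, had 5 sites (chromosome 10, 81395322 to 81402196), all GGACA, of which 4 were listed in both replicates. On ENSMUST00000002518.8, position 1120 had 0.923 in replicate 1 (55 reads) and 0.931 in replicate 2 (102 reads). Position 899 had 0.226 over 54 reads and 0.242 over 103 reads. In replicate 2 its mean deviation from other genes at the same motif was -0.213, lower than in all but 2.89% of other genes with 3 or more sites. In Ctbp2 (chromosome 7, 132589292 to 132726083), with 6 reads at each site listed in replicate 1, GGACA position 478 had 1 in both replicates over 6 and 26 reads, and GGACC position 1808, the lowest in replicate 2, had 0.2 and 0.0833 over the same numbers. Pygo2, a reader of histone marks in the β-catenin coactivator complex, had 4 sites (chromosome 3, 89337521 to 89342435). Its highest, GGACA position 1732, had 0.944 over 28 reads in replicate 2 alone, while GGACA position 2402 had 0.857 over 10 reads and 0.737 over 30 reads and GGACT position 1063 had 0 in both, over 8 and 26 reads.

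The member sites were then compared with all other genes at each motif. Their composition was close to that of other genes: GGACA made up 37.1% of member sites (95% Wilson interval 29.1% to 45.9%, counting error only) against 35.6% of 16088 other sites, GGACC 24.2% (17.5% to 32.4%) against 22.1%, GGACT 19.4% (13.4% to 27.2%) against 24.2%, and AGACT 19.4% (13.4% to 27.2%) against 18.1%. Median fractions at GGACA were 0.706 ± 0.000177 for members and 0.689 ± 0.0321 for other genes (each SD, n = 2). The difference, member minus other, was 0.0167 ± 0.0322 at GGACA, 0.0555 ± 0.0822 at AGACT, 0.0220 ± 0.0396 at GGACC and -0.0505 ± 0.0305 at GGACT (each SD, n = 2). At the first 3 motifs the replicates had opposite signs, and the mean difference was within 1 SD. Replicate 1 covers only 35 of 46 GGACA, 15 of 24 AGACT, 18 of 24 GGACT and 19 of 30 GGACC member sites. The signs and SDs of medians and differences thus mix a change of sites with the spread between replicates. Over sites listed in both replicates the mean differences were 0.0175 at GGACA, 0.07465 at AGACT, 0.03655 at GGACC and -0.0501 at GGACT. Stricter coverage moved these values: with 50 reads in replicate 2 the difference was 0.0669 ± 0.0278 at GGACA and 0.0988 ± 0.0377 at GGACC, and with 20 reads in both replicates 0.335 ± 0.0513 at AGACT (each SD, n = 2). The AGACT value rests on Ctbp1 positions 757, 1796 and 1608 and Csnk1a1 position 2030 alone. Of these, 1796 and 1608 are paired below as a stretch shared by the Ctbp1 transcripts. For GGACT members were lower in both replicates, by -0.0721 and -0.0290, but the 20-read minimum in both replicates turned the difference to 0.0683.

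**Figure D3:**
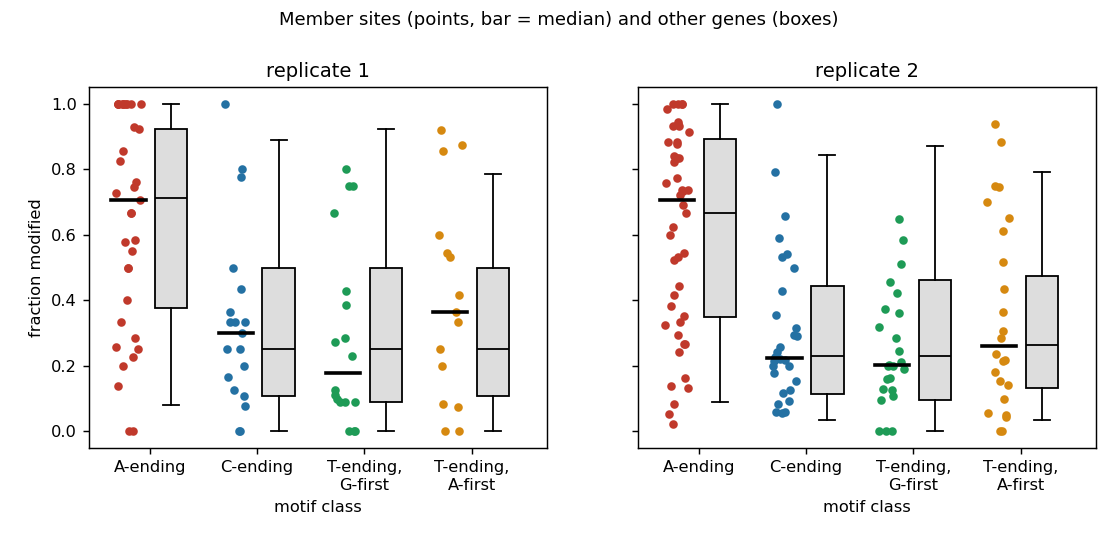
Fraction modified (y axis) by motif class (x axis), replicate 1 on the left and replicate 2 on the right. Points are member sites with a bar at their median, and boxes give the quartiles of other genes with whiskers from the 5th to the 95th percentile. Member medians lie inside the boxes of other genes at every motif, and the A-ending motif is highest in both.

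As a single value over motifs, each fraction was set against the median of other genes at the same motif in the same replicate, and the deviations were averaged. Over all members the deviation was 0.0261 in replicate 1 and 0.0203 in replicate 2, and over other genes themselves 0.0169 and 0.0265, since the distributions are skewed. Of the 124 member sites 60 lay above the other-gene median in replicate 2, against 49.4% of all sites. In this setting the members and the other genes differed by less than the spread between replicates, but the member value moved with the setting. With 50 reads in replicate 2 the members were at 0.0720 ± 0.0106 and the other genes at 0.0274 ± 0.00147, and with each gene weighted equally at -0.000235 ± 0.00827 and 0.0204 ± 0.00573 (each SD, n = 2). In replicate 1 alone, over positions with 20 reads there, they were at 0.00774 and 0.0287. By group the destruction complex deviated by 0.137 in replicate 1 and 0.0830 in replicate 2 (0.110 ± 0.0381, SD, n = 2), with 21 of its 33 sites above the other-gene median. Secreted antagonists deviated by -0.0580 in replicate 1 and -0.0383 in replicate 2, and Wls, the only ligand secretion gene with sites, by -0.269 and -0.208. For receptors the values were 0.0222 and -0.00221, of opposite sign, and for nuclear factors 0.00120 and 0.0335. Replicate 1 covers only 34 of 43 receptor, 10 of 14 antagonist, 19 of 33 destruction complex and 22 of 31 nuclear factor sites. Signs and spreads of these group values therefore also reflect a change of sites. Over sites listed in both replicates the means were 0.0284, -0.0743, 0.117 and 0.0221, in the same order.

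Within the destruction complex the genes differed: deviations in replicate 2 were 0.217 in Gsk3a, 0.188 in Axin1 and 0.0531 in Csnk1a1, but -0.0239 in Csnk1d and -0.0178 in Csnk1e. Over sites listed in both replicates the means were 0.225 ± 0.0390 in Gsk3a, 0.236 ± 0.0776 in Axin1, 0.0938 ± 0.00529 in Csnk1a1, 0.0750 ± 0.0605 in Csnk1d and 0.00499 ± 0.0323 in Csnk1e (each SD, n = 2). Leaving out 1 gene at a time gave group values of 0.0862 (without Axin1) to 0.129 (without Csnk1a1). Without both Axin1 and Gsk3a it was 0.0550 ± 0.0461 (SD, n = 2), with 0.0877 in replicate 1 and 0.0224 in replicate 2, where other genes were at 0.0265. With 20 reads in both replicates the group was at 0.0703 ± 0.0101, the nuclear factors at 0.0756 ± 0.0171, the antagonists at 0.0202 ± 0.0625 and the receptors at -0.0572 ± 0.00197 (each SD, n = 2), so that the destruction complex was not the highest group there. At that depth it held 3 sites of Csnk1a1 and 1 of Csnk1d, and none of Axin1 or Gsk3a. The nuclear factors held 10 sites of Ctbp1 and 4 of Tle5, and the antagonists 1 of Sfrp1 and 2 of Sfrp2. This order is therefore not a comparison of the full groups. For the nuclear factors the value rested on Ctbp1, without which it was -0.0886. Among single genes, deviations in replicate 2 ran from -0.213 in Tle5 to 0.217 in Gsk3a, and none of the 16 members with 3 or more sites exceeded the 95th percentile of other genes (0.241), although Tle5 and Wls lay below the 5th (-0.181). Ctbp1 (0.148), Axin1 (0.188) and Gsk3a were above the 75th percentile of 0.107, and Tle5, Wls, Sfrp2 (-0.156) and Fzd5 (-0.132) were below the 25th of -0.0612. Over sites listed in both replicates these 4 low genes had means of -0.214 ± 0.0442, -0.248 ± 0.0300, -0.0770 ± 0.0608 and -0.129 ± 0.0648 (each SD, n = 2). The Sfrp2 value in replicate 2 thus depends on position 491, listed there alone.

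Groups were then compared at GGACA alone. In replicate 2, 11 of 13 destruction complex GGACA sites lay above the other-gene median of 0.667, against 1 of 9 in the Frizzled genes, while 49% of all GGACA sites did. In replicate 1, where the other-gene median was 0.712, the counts were 9 of 10 and 0 of 7, against 50%. The group medians were 1 and 0.84 for the destruction complex and 0.55 and 0.417 for the Frizzled genes, in replicates 1 and 2. Among nuclear factors 9 of 14 sites lay above in replicate 2, with a median of 0.780, and among antagonists 3 of 9, with a median of 0.382 that was below that of the Frizzled genes. These sites are not independent, since the 13 come from 5 genes and include 3 positions of Csnk1a1 listed on both of its transcripts. With 1 transcript per gene the replicate 2 count was 8 of 10. Without a coverage minimum it was 13 of 17, against 8 of 24 in all receptors and membrane regulators. With 20 reads in both replicates 2 of 2 and 1 of 3 sites remained. At the other motifs the groups were closer in replicate 2. The destruction complex had 4 of 7 AGACT, 3 of 5 GGACT and 3 of 8 GGACC sites above the other-gene median. The Frizzled genes had 4 of 9, 5 of 12 and 7 of 13. The contrast at GGACA was picked out after the values had been seen.

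**Figure D4:**
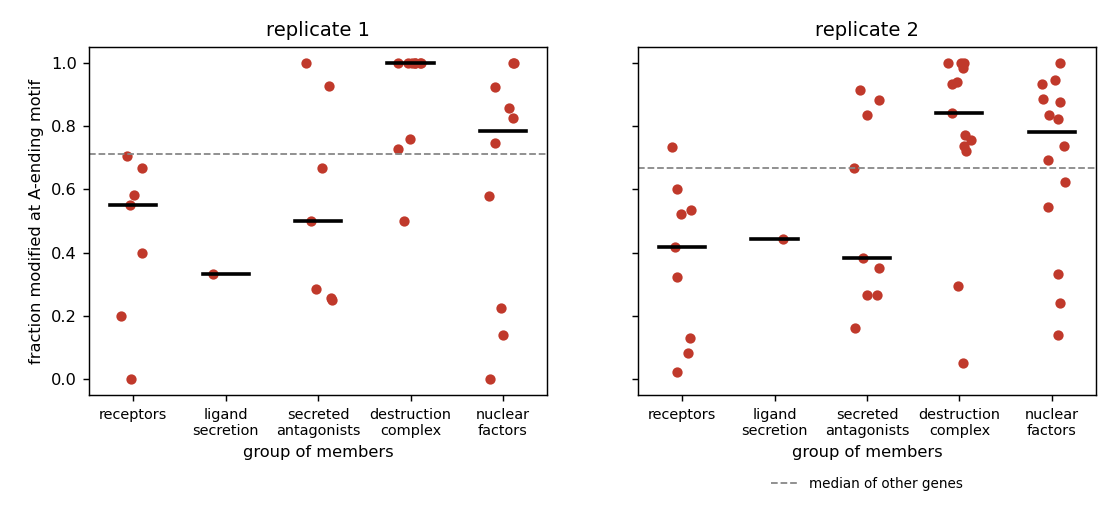
Fraction modified (y axis) at the GGACA sites of each group of members (x axis), replicate 1 on the left and replicate 2 on the right; bars are group medians and the dashed line is the median of other genes at this motif. Destruction complex sites lie mostly above the line and the receptor sites, all from Frizzled genes, mostly below it, at 11 of 13 and 1 of 9 above in replicate 2.

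Sites at the ends of the range were counted where both replicates had a value. At least 0.8 in both was reached by 15 of 87 member sites in 10 genes, against 16.1% of all sites. Of these, 12 were GGACA, out of 35, against 34.3% of all GGACA sites. No GGACT site of the 18 was among them, against 7.22% of all GGACT sites. At most 0.1 in both was seen at 9 of 87 member sites in 7 genes, against 10.3% of all sites. Over all motifs both shares were thus near those of all sites. By motif, the low ones were 4 of 15 AGACT sites, in Csnk1a1, Fzd1, Fzd5 and Sfrp1, against 13.2% of all AGACT sites. For GGACT they were 4 of 18, in Csnk1a1, Fzd5, Pygo2 and Wls, against 17.7%, and for GGACC 0 of 19, against 12.6%. The remaining one was the GGACA of Fzd8 at position 2875, 1 of 35, against 2.82%.

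Csnk1a1, Ctbp1 and Tle5 had sites on more than 1 transcript, so that stretches shared by isoforms could be compared. Positions of 2 transcripts were paired where they shared the motif and a common offset, because no transcript sequences were used, and 11 pairs were found. In replicate 2 the paired fractions differed by a median of 0.0559 and by at most 0.103. In replicate 1, where 5 pairs had both values at lower coverage, the median was 0.0814 and the largest difference 0.217, at the Ctbp1 AGACT of positions 757 and 566 (0.417 over 62 reads and 0.2 over 15 reads). The 5 pairs of Ctbp1 included the AGACT with 0.939 over 121 reads on one transcript and 0.882 over 69 reads on the other. In Csnk1a1 the GGACA with a fraction of 1 over 61 reads also had 1 over 33 reads on ENSMUST00000165721.7, 39 bases nearer its 5′ end, and the low AGACT had 0.0441 over 89 reads and 0.1 over 35 reads. Reads over shared exons may have been divided between the transcripts by the authors' alignment, so the pairs are not separate RNAs for certain. When each pair is counted once, 113 member sites remain.

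Neighbouring sites of the same motif were compared next. Within 30 bases on the same transcript there were 6 such pairs in the members, by a distance chosen after the values had been seen, with a median difference of 0.399 in replicate 2, against 0.233 for 356 pairs in other genes. The GGACC sites of Fzd8 at positions 1774 and 1786, 12 bases apart and covered by the same number of reads, had 0.25 and 0.778 over 13 reads in replicate 1 and 0.290 and 0.792 over 60 reads in replicate 2, a difference of 0.515 ± 0.0181 (SD, n = 2). In Tle5, the GGACA sites at positions 685 and 706 had 0.579 and 0.139 over 51 reads in replicate 1 and 0.623 and 0.139 over 97 reads in replicate 2. For Fzd1, AGACT position 2374 had 0.0488 in replicate 2 and AGACT position 2393 had 0.745, each over 56 reads. The remaining pairs, in Csnk1e, Sfrp1 and Fzd1, differed by less, with -0.256 ± 0.0552, -0.240 ± 0.104 and 0.249 ± 0.125 (second site minus first, each SD, n = 2).

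The precision of a single fraction followed the depth of replicate 1. At the 87 member sites listed in both, the median difference between replicates was 0 and the SD of the differences 0.155, with 37 sites higher in replicate 2, 39 lower and 11 equal. The root mean square difference was 0.201 at 21 sites with 5 to 9 reads in replicate 1, 0.163 at 35 sites with 10 to 19 reads and 0.102 at 31 sites with 20 or more reads. Other genes gave 0.215, 0.166 and 0.0999 in the same classes. A difference above 0.2 was seen at 14 of the 87 sites, against 15.7% of all sites. The largest, 0.546, was at GGACA position 1744 of Ctbp2, with 0 over 6 reads and 0.546 over 26 reads. Across sites the replicates were correlated at a Pearson r of 0.888 and a Spearman rho of 0.868 (87 sites of shared libraries, as a description).

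**Figure D5:**
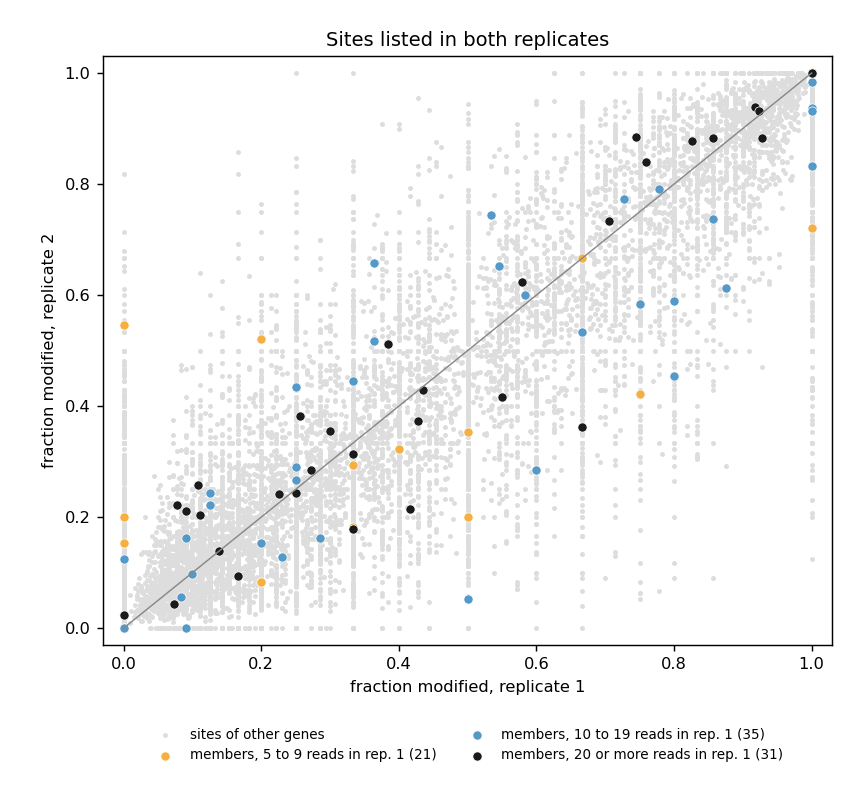
Fraction modified in replicate 2 (y axis) against replicate 1 (x axis) at sites listed in both, with the line of equality. Grey points are other genes and coloured points are members by their coverage in replicate 1; the 31 member sites with 20 or more reads lie closest to the line, with a root mean square difference of 0.102.

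Of the 124 sites, 37 were listed only in replicate 2, where their median fraction was 0.235, against 0.373 at the 87 listed in both. In other genes these medians were 0.313 and 0.357. The medians pool the motifs and are not a like-for-like comparison. Listed in both were 35 of 46 GGACA, 18 of 24 GGACT, 15 of 24 AGACT and 19 of 30 GGACC member sites. At 21 of the 37, positions listed in replicate 1 lay on both sides on the same transcript, such as the Sfrp1 GGACA at position 1147. In other genes this held for 42.8% of 4054 such sites. Coverage at the position itself is not listed for them, and why they were left out was not tested. Just inside the coverage minimum, 12 member positions with 20 to 22 reads in replicate 2 had fractions of 0 to 0.7 with a median of 0.343, and 16 positions just outside, with 17 to 19 reads, had 0 to 1 with a median of 0.481.

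Beyond these members, 56 other genes of the pathway were examined by counts. In replicate 2, 21 of them were listed and 7 had sites, 51 in all: Ctnnb1, which encodes β-catenin itself, with 29, Tnks2, a tankyrase that marks Axin for degradation, with 9, Ccnd1 and Cxxc5 with 4 each, Ctnnbip1 with 3, and Cby1 and Ryk with 1 each. Their motif-adjusted deviation was -0.0390 in replicate 1 and 0.0224 in replicate 2. Of the 19 Wnt ligand genes, 3 were listed in replicate 2, Wnt5b, Wnt7b and Wnt8b, and none had a site. No member position appeared in the minus tables, which hold 11 and 35 positions.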

How the data were processed

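Poly(A) RNA was sequenced as native RNA on nanopores (RNA002 chemistry, per the labels' protocols), 1 library per replicate. The fraction modified is a deposited fraction and the coverage a deposited whole-number count of reads, each made by the authors per position and library. The fraction's denominator, the aligner and the modification caller are not given in the sources used here. Only 32.2% (replicate 1) and 14.5% (replicate 2) of member fractions are whole multiples of 1 over the coverage within the rounding to 4 decimals. These include fractions of 0 or 1, which fit any denominator: 9 and 11 sites in replicate 1, and 5 and 5 in replicate 2. For most member fractions the coverage is thus not the denominator, and no interval was set on a fraction.

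Rows were assigned by gene name (219 and 533 positions without a name were left out of the members) and replicates matched on transcript and listed end, with a minimum of 20 reads in replicate 2. Medians, deviations and shares were computed in Python 3.11.15 with pandas 2.3.3 and scipy 1.17.1, and the deviation was tested on simulated data. Named are members with 3 or more sites, with their highest, lowest or deepest sites, and the others by counts; fractions of Fzd3, Fzd7, Tcf7l1, Tle4 and Bcl9 and some further sites were added after their values had been seen. Members and lists were chosen with earlier results of these data known. Position as a share of transcript length was not analysed here.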

Additional observations from a re-analysis of the deposited data

How the results depend on the processing

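Without a coverage minimum there were 294 member sites in 35 genes, with a deviation of 0.0275 over all members and -0.0771 for secreted antagonists, and 14 sites at or below 0.1 in both replicates. With 50 reads in replicate 2 the counts were 58 sites in 10 genes, 9 high and 4 low sites. The differences of medians were then 0.0669 at GGACA, -0.00520 at GGACT and 0.0988 at GGACC, and the deviations 0.0720 for all members, 0.0723 for receptors, -0.0678 for antagonists and 0.0751 for nuclear factors. With 20 reads in both replicates 31 sites in 9 genes remained, with 6 high and 2 low sites and an AGACT share of 12.9%. The differences were 0.335 at AGACT, from sites of Ctbp1 and Csnk1a1 alone, and 0.0683 at GGACT, which reversed. The deviations were -0.0572 for receptors, 0.0202 for antagonists, which reversed, 0.0703 for the destruction complex, without Axin1 or Gsk3a sites, and 0.0756 for nuclear factors. With 1 transcript per gene the difference at GGACA was -0.0183, the deviation of all members 0.0156 and that of nuclear factors -0.0160. Weighting genes equally gave -0.0182 at GGACA and deviations of -0.000235 for all members, which reversed, -0.0812 for antagonists and -0.0345 for nuclear factors. Taking the mean of other genes gave 0.00499 for all members, -0.0338 for receptors and -0.0270 for antagonists. Limits of 0.9 and 0.05 left 5 low sites. Among alternatives chosen after seeing the data, sites listed in both replicates gave 0.0279 for all members, 0.0284 for receptors and -0.0743 for antagonists. Leaving out single genes moved the antagonists to -0.138 (without Sfrp1) and -0.0243 (without Sfrp2), the nuclear factors to -0.0886 (without Ctbp1) and 0.0685 (without Tle5), and the receptors to -0.00808 (without Fzd2). Without both Axin1 and Gsk3a the destruction complex was at 0.0550. Fewer sites or genes enter under most of these; beyond that the cause was not tested.

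Replicate 2 alone kept its sites, while replicate 1 alone was taken over the positions with 20 reads there, so that the sites changed too. These settings gave differences of -0.0321 to 0.0395 at GGACA, -0.00270 to 0.201 at AGACT, -0.0290 to 0.0787 at GGACT and -0.00605 to 0.0319 at GGACC. The deviations ran from 0.00774 to 0.0203 for all members, -0.0473 to -0.00221 for receptors, -0.0383 to -0.0264 for antagonists, 0.0830 to 0.0834 for the destruction complex (0.137 in replicate 1 over the main sites) and 0.0291 to 0.0335 for nuclear factors. Of 184 alternative values, 120 counted as the same as the main value, 60 moved and 4 reversed. Same meant within 1 SD of the main value, for counts within a fixed ratio and for motif shares within the Wilson interval. Replicate 2 alone, and either replicate alone for neighbouring pairs, is part of the SD it was held against. Those values could only count as the same, so the tally is not a measure of robustness. No paired analysis between groups of samples was possible because the samples form 1 group. Depth limits single fractions: with 5 to 9 reads in replicate 1 the member replicates differed by 0.201 in root mean square.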
